A study of Mus musculus with 12 samples.

Results

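Cytochrome P450 genes encode the heme-containing monooxygenases that make and clear bile acids, steroids, retinoids, fatty acids and drugs. Their mRNAs were measured in mouse liver after a challenge with the endoplasmic reticulum (ER) stressor tunicamycin (TM), an inhibitor of N-linked glycosylation. The members were the genes with a symbol of the form Cyp followed by a number, without pseudogenes, that had at least 1 probeset assigned to that gene alone. A probeset is a group of oligonucleotides on the Affymetrix array that together report 1 transcript. Of 18193 genes with a probeset of their own, 72 were P450 genes, and each was represented by its probeset with the highest mean over all arrays. Of these 72 genes, 17 lay below the median of all probesets in every group and are marked where their values are given. All 72 were tested, with no filter on low values, and 4 further probesets that name several P450 genes together (among them those of Cyp2a4 and Cyp2a5) were not used.

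The arrays came from 4 groups of 3 animals each. Wild-type (Atf6a +/+) or Atf6a-/- mice, the latter lacking the ER stress sensor and transcription factor ATF6α, were injected intraperitoneally with 2 mg/kg TM dissolved in 150 mM dextrose or with 150 mM dextrose as vehicle, and total RNA was taken from whole-liver homogenate 8 h later. Age and gender varied among the animals, and neither is assigned to single animals in the labels, nor is the mouse strain. The genotype is given for the whole animal and the RNA is of the whole liver, so that neither is specific to hepatocytes. All values are robust multi-array average (RMA) signals on the log2 scale, and a difference of 1 is a 2-fold change. A gene is called higher or lower where limma gave an adjusted p under 0.05 together with a change of at least 1.5-fold.

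P450 enzymes of hepatocytes sit mostly in the ER membrane, the compartment that TM perturbs, and a smaller group sits in mitochondria. The families 1 to 3 act mainly on drugs and other foreign compounds and are induced through ligand-activated receptors such as CAR, PXR and the aryl hydrocarbon receptor. Families 4, 7, 8, 26, 27 and 51 act mainly on fatty acids, bile acids, retinoids, vitamin D and sterols. Several mouse P450 genes are known to differ between male and female liver under the control of growth hormone.

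The samples were checked before any P450 result was read. Atf6 measured 8.74, 9.47 and 8.90 in wild-type vehicle arrays and 7.03, 7.15 and 7.79 in Atf6a-/- vehicle arrays (difference of -1.71, adjusted p = 0.184). Under TM it measured 10.75, 11.16 and 11.01 in wild-type and 10.19, 9.76 and 10.50 in Atf6a-/- arrays (-0.82, adjusted p = 0.0905). Every Atf6a-/- array lay below every wild-type array of the same treatment, and the sources used here do not place the probeset inside or outside the deleted part. The 6 ER stress genes Hspa5, Ddit3, Herpud1, Dnajb9, Creld2 and Sdf2l1 rose with TM in both genotypes, by 1.74 to 6.79 in wild-type and by 1.31 to 6.13 in Atf6a-/- mice. All 9 measured hepatocyte markers lay above the array median, with a mean level of 13.68 to 13.88 over all arrays. In each group 1 array carried signal for the Y-linked genes Eif2s3y, Uty and Kdm5d and little for Xist, and it was replicate 2 of wild-type vehicle, replicate 1 of wild-type TM, replicate 3 of Atf6a-/- vehicle and replicate 2 of Atf6a-/- TM. Eif2s3y measured 8.21 to 8.98 in these 4 arrays and 3.04 to 3.44 in the other 8. Counts of called P450 genes that change without these 4 arrays are given both ways, and the values of single genes in part.

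The stretches of 250 bases just upstream of the start are shown for 6 genes: Cyp2b10, which rose with TM in both genotypes, its relatives Cyp2b9 and Cyp2b13, whose levels split the arrays of each group, Cyp2c70, which was called lower in both genotypes, and Cyp2c37 and Cyp2c50, which were called lower in Atf6a-/- mice alone, the former at an adjusted p near the threshold. They are RefSeq sequences of the GRCm38.p6 assembly, read along each gene (minus strand for Cyp2c70, plus strand for the others), at chr7:25897408-25897657 for Cyp2b10, chr7:26173159-26173408 for Cyp2b9, chr7:26061245-26061494 for Cyp2b13, chr19:39992174-39992423 for Cyp2c37, chr19:40089429-40089678 for Cyp2c50 and chr19:40187287-40187536 for Cyp2c70. Capitals mark matches on either strand to the TATA box letters TATAAA, to the CCAAT box, to the nuclear receptor core AGGTCA or to CAAAGTCCA, which is a form of the element bound by HNF4α.
Cyp2b10: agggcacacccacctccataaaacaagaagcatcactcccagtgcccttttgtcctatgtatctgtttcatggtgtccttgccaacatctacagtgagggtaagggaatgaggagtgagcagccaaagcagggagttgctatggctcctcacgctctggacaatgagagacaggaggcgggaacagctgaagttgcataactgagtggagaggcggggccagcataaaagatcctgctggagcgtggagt
Cyp2b9: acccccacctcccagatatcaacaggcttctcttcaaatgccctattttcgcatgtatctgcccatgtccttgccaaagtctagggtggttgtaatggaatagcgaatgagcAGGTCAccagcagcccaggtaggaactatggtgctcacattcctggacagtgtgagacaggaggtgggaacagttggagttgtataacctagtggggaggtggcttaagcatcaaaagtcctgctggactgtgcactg
Cyp2b13: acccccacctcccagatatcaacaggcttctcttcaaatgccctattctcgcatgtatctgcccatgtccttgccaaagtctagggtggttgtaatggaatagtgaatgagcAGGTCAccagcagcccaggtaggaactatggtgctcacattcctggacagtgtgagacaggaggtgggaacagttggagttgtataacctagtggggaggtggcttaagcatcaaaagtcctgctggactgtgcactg
Cyp2c37: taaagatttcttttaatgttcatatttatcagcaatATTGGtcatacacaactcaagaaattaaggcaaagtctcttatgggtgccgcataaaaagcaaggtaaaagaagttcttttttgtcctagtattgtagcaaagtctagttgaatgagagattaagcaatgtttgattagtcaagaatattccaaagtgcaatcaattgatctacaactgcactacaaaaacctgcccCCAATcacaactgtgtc
Cyp2c50: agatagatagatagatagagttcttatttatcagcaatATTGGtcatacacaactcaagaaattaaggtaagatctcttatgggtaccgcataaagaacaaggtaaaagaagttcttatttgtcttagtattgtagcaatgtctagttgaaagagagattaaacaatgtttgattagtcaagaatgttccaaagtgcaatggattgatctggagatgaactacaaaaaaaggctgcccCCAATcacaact
Cyp2c70: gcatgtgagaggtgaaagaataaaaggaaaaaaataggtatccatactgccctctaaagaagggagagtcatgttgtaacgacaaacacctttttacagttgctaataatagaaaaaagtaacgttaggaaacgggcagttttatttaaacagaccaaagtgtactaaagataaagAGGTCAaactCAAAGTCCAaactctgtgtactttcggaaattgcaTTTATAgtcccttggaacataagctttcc
Cyp2b9 and Cyp2b13 were identical at 248 of 250 aligned positions (99.2%), whereas Cyp2b10 shared 71.4% with either of them. Cyp2c37 and Cyp2c50 shared 84.3%, and Cyp2c70 shared 50.4% with the former and 50.7% with the latter. The core AGGTCA was found in Cyp2b9 and Cyp2b13 at bases 138 to 133 upstream of the start and in Cyp2c70 at bases 74 to 69. It was absent from the Cyp2b10 window of 250 bases, and sequence further upstream was not searched for any gene. The letters CAAAGTCCA were found in Cyp2c70 at bases 64 to 56.

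The same 250 bases were searched in the 52 of 72 P450 genes that the RefSeq table holds. CAAAGTCCA was present in 6 of them (11.5%), namely Cyp2c68, Cyp2c70, Cyp3a11, Cyp8b1 and, both below the array median, Cyp2c65 and Cyp3a16, against 0.381% of all 27025 promoters. Of these 6 genes, Cyp2c70 was called lower with TM and the other 5 were not called in any comparison. TATAAA was present in 19 (36.5%, against 13% of all promoters), AGGTCA in 11 (21.2% against 13.8%) and CCAAT in 22 (42.3% against 34.5%). The ER stress element ERSE and the ATF6 core TGACGTGG were found in 0 of the 52, and in 0.122% and 0.503% of all promoters. TGATGCAA, a form of the element bound by ATF4, was found in Cyp3a11 (1.92% against 0.818%). The STAT palindrome TTCNNNGAA was found in 3 genes (5.77% against 7.18%), GTTAAT, part of the HNF1 site, in 2 (3.85% against 6.52%) and the C/EBP palindrome TTGCGCAA in 0 (against 0.17%). A match describes the letters and is not evidence of binding.

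TM raised Cyp2b10, which encodes a drug-metabolizing enzyme and is the classical target of the receptor CAR, more than any other P450 gene in both genotypes. In wild-type mice the vehicle arrays of Cyp2b10 measured 9.56, 8.35 and 9.56 and the TM arrays 12.61, 12.93 and 12.89. This was a rise of 3.65, or 12.6-fold (standard error 0.60, adjusted p = 9.55e-04). In Atf6a-/- mice it measured 10.09, 11.11 and 7.99 with vehicle and 12.60, 11.92 and 12.87 with TM, a rise of 2.73 or 6.64-fold (standard error 0.60, adjusted p = 0.00464). Every TM array lay above every vehicle array of its genotype, and the vehicle arrays of Atf6a-/- mice were the most spread. The lowest array of each group was the one with Y-linked signal. Without those 4 arrays the rise was 3.35 in wild-type and 2.14 in Atf6a-/- mice (adjusted p = 2.87e-05 and 3.03e-04). Both further Cyp2b10 probesets were also called, at 3.53 and 3.33 in wild-type and 2.82 and 2.62 in Atf6a-/- mice. The difference between the genotypes in the rise was -0.92, with a 95% interval from -2.77 to 0.93 (adjusted p = 0.772).

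Cyp26b1, which encodes a retinoic acid hydroxylase, was the other P450 gene called higher with TM in wild-type mice. It measured 6.42, 6.16 and 6.31 with vehicle and 6.56, 7.67 and 7.38 with TM, a rise of 0.91 (standard error 0.26, adjusted p = 0.0314). The vehicle arrays of Atf6a-/- mice were at 7.86, 7.81 and 7.36, and the TM arrays measured 7.0, 7.78 and 7.14 (-0.37, adjusted p = 0.321). All vehicle arrays of Atf6a-/- mice thus lay above all vehicle arrays of wild-type mice (difference of 1.38, standard error 0.26, adjusted p = 1.00). The interaction was -1.28 (standard error 0.37, adjusted p = 0.154). Without the 4 arrays with Y-linked signal Cyp26b1 was called higher under vehicle in Atf6a-/- mice (1.47, adjusted p = 0.0049), lower with TM in that genotype (-0.77, adjusted p = 0.00234) and lower in the interaction (-1.93, adjusted p = 0.00217). Its call for TM in wild-type mice was lost without wild-type vehicle replicate 1, 2 or 3 or without wild-type TM replicate 2 or 3, and then Cyp2b10 alone was called higher.

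Of the 72 P450 genes, 2 (2.78%) were called higher with TM in wild-type mice, against 8.92% of all genes, and 7 (9.72%) were called lower, against 6.9%. In Atf6a-/- mice 1 (1.39%) was called higher, against 13.1% of all genes, and 11 (15.3%) were called lower, against 8.21%. The median change of the P450 genes was -0.083 in wild-type mice, where that of all genes was -0.060, and -0.24 in Atf6a-/- mice, where that of all genes was -0.10. The estimate was below 0 for 48 P450 genes (66.7%, all genes 60.6%) in wild-type and for 58 (80.6%, all genes 64.1%) in Atf6a-/- mice. At an unadjusted p under 0.05, 2 P450 genes were higher (2.78%, all genes 15.7%) and 11 lower (15.3%, all genes 19.9%) in wild-type mice. In Atf6a-/- mice 2 were higher (2.78%, all genes 20.5%) and 23 lower (31.9%, all genes 26.1%). The TM and vehicle arrays did not overlap for 6 higher (8.33%, all genes 16.8%) and 12 lower (16.7%, all genes 22.5%) P450 genes in wild-type mice. In Atf6a-/- mice they did not overlap for 1 higher (1.39%, all genes 20.8%) and 23 lower (31.9%, all genes 29.6%). The bulk RNA cannot tell fewer cells of a type from less RNA per cell.

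**Figure D1:**
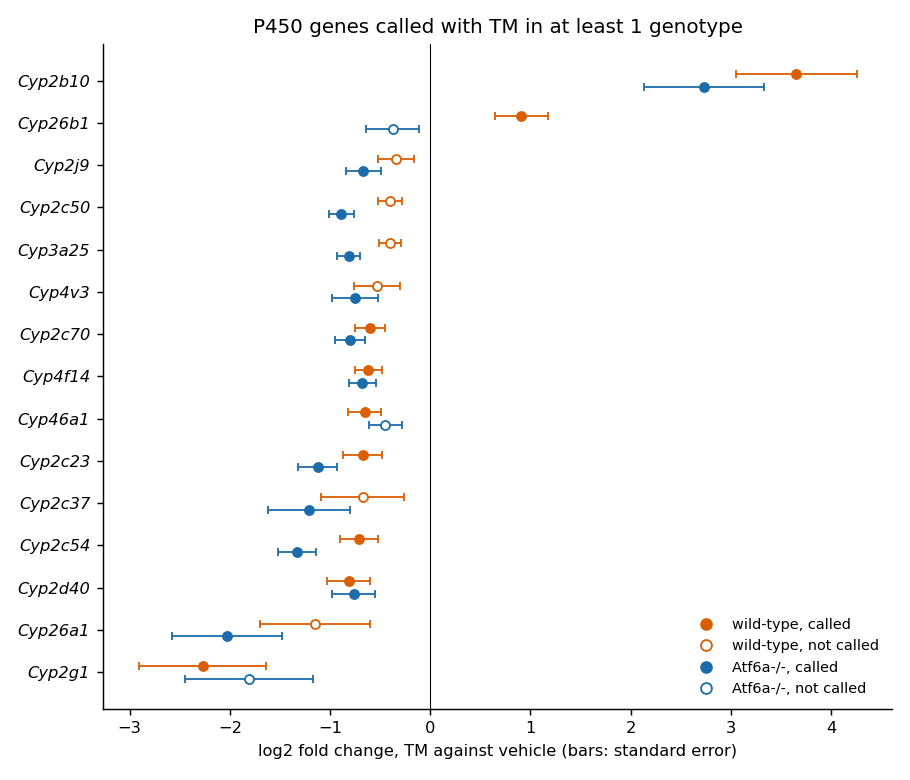
Log2 fold change (x axis) of TM against vehicle for the 15 P450 genes (y axis) called in at least 1 genotype, from 3 arrays per group in wild-type (orange) and Atf6a-/- mice (blue). Bars are standard errors, and filled points are called. Cyp2b10 stood at 3.65 and 2.73, and 13 of the 15 genes lay below 0 in both genotypes.

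The 7 P450 genes called lower in wild-type mice were Cyp2c23, Cyp2c54, Cyp2c70, Cyp2d40, Cyp2g1, Cyp4f14 and Cyp46a1. Cyp4f14, a fatty acid and leukotriene ω-hydroxylase gene, measured 12.39, 11.93 and 12.42 with vehicle and 11.75, 11.54 and 11.59 with TM (fell by 0.62, standard error 0.14, adjusted p = 0.00665). Cyp2c70, whose enzyme makes muricholic acids from chenodeoxycholic acid in rodents, measured 13.23, 13.46 and 13.37 with vehicle and 12.85, 12.91 and 12.52 with TM (fell by 0.60, standard error 0.15, adjusted p = 0.0132). Cyp2c54, an arachidonic and linoleic acid epoxygenase gene, measured 13.35, 13.31 and 13.21 with vehicle and 12.46, 12.66 and 12.62 with TM (fell by 0.71, standard error 0.19, adjusted p = 0.0206). In these 3 genes the TM arrays all lay below the vehicle arrays. Cyp2c23, another arachidonic acid epoxygenase gene, measured 12.76, 12.78 and 12.70 with vehicle and 12.22, 12.15 and 11.85 with TM (fell by 0.67, adjusted p = 0.0292).

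The remaining 3 were low or variable. Cyp2d40 measured 5.32, 5.67 and 4.94 with vehicle and 4.55, 4.62 and 4.30 with TM (-0.82, adjusted p = 0.0168), close to the median of all probesets. Cyp46a1, which encodes the cholesterol 24-hydroxylase known from brain, lay below the array median in all groups and fell from 4.99, 5.21 and 4.54 to 4.04, 4.37 and 4.37 (-0.65, adjusted p = 0.015). Cyp2g1, known from olfactory mucosa, had the largest fall of the 7 at 2.27 (standard error 0.64, adjusted p = 0.0257), from 9.06, 6.56 and 8.73 to 5.13, 6.60 and 5.80. Its groups overlapped, since the vehicle array at 6.56, the one with Y-linked signal, lay below the highest TM array. Without wild-type vehicle replicate 1, 2 or 3 the lower genes numbered 1, 3 and 4, and without wild-type TM replicate 1 or 3 they numbered 4 and 3, so that each of the 7 lost its call without at least 1 array. Without the 4 arrays with Y-linked signal 3 were called lower, Cyp2g1, Cyp4f14 and Cyp4v3.

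TM lowered 11 P450 genes in Atf6a-/- mice, among them 5 of the 7 called in wild-type mice (Cyp2c23, Cyp2c54, Cyp2c70, Cyp2d40 and Cyp4f14). Cyp2c54 measured 13.33, 13.27 and 13.29 with vehicle and 12.56, 11.63 and 11.70 with TM, a fall of 1.33 or 2.51-fold (standard error 0.19, adjusted p = 2.2e-04). Cyp2c50, a close relative that also makes epoxides of arachidonic acid, measured 13.58, 13.49 and 13.47 with vehicle and 12.84, 12.70 and 12.35 with TM (fell by 0.89, standard error 0.12, adjusted p = 1.72e-04). Cyp3a25, a member of the drug and steroid hydroxylase family 3, measured 13.16, 13.41 and 13.28 with vehicle and 12.66, 12.46 and 12.30 with TM (fell by 0.81, standard error 0.11, adjusted p = 1.92e-04). No TM array of these 3 genes reached a vehicle array, and for Cyp2c54 the TM array at 12.56 stood above the others of its group. In wild-type mice Cyp2c50 and Cyp3a25 each changed by -0.40 (adjusted p = 0.0396 and 0.0278), under the 1.5-fold minimum.

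Cyp2c23 measured 12.75, 12.67 and 12.65 with vehicle and 12.06, 11.58 and 11.06 with TM in Atf6a-/- mice, a fall of 1.12 (standard error 0.19, adjusted p = 8.68e-04). Cyp2c70 measured 13.28, 13.17 and 13.33 with vehicle and 12.11, 12.63 and 12.63 with TM (fell by 0.80, adjusted p = 0.00141). Cyp4f14 measured 12.03, 12.11 and 11.90 with vehicle and 11.43, 11.44 and 11.15 with TM (fell by 0.68, adjusted p = 0.00261). The TM and vehicle arrays were again apart for all 3. Cyp26a1, the main retinoic acid hydroxylase of liver, fell by 2.03 (standard error 0.55, adjusted p = 0.0157), from 11.55, 9.76 and 9.46 to 8.13, 7.56 and 9.0. In wild-type mice it measured 9.80, 8.92 and 7.90 with vehicle and 7.92, 7.73 and 7.52 with TM (-1.15, adjusted p = 0.194). The vehicle arrays of Cyp26a1 were widely spread in both genotypes, and in wild-type mice the lowest of them overlapped the TM arrays.

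Cyp4v3, a fatty acid ω-hydroxylase gene, measured 12.29, 12.29 and 12.64 with vehicle and 11.59, 12.22 and 11.17 with TM (-0.75, adjusted p = 0.0288). Cyp2j9 fell from 6.04, 6.06 and 5.72 to 5.42, 5.38 and 5.01 (-0.67, adjusted p = 0.0137). Cyp2d40 changed by -0.77 (adjusted p = 0.017), and Cyp2c37, from 13.51, 13.22 and 13.16 to 12.74, 11.10 and 12.43, by -1.21 (standard error 0.41, adjusted p = 0.0453). The calls of Cyp2c23, Cyp2c50, Cyp2c54, Cyp2c70 and Cyp3a25 held without any single array. That of Cyp26a1 was lost without Atf6a-/- vehicle replicate 1 or TM replicate 2, that of Cyp2d40 without vehicle replicate 1 or TM replicate 3, that of Cyp2j9 without vehicle replicate 1 or 2 or TM replicate 3, that of Cyp4f14 without TM replicate 3, that of Cyp4v3 without any vehicle replicate or TM replicate 1 or 3, and that of Cyp2c37 without any of 7 arrays. Without Atf6a-/- TM replicate 3 the lower genes numbered 7. Without the 4 arrays with Y-linked signal they numbered 18 and included all 11. Apart from Cyp26b1, the genes that gained a call there are not named here.

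**Figure D2:**
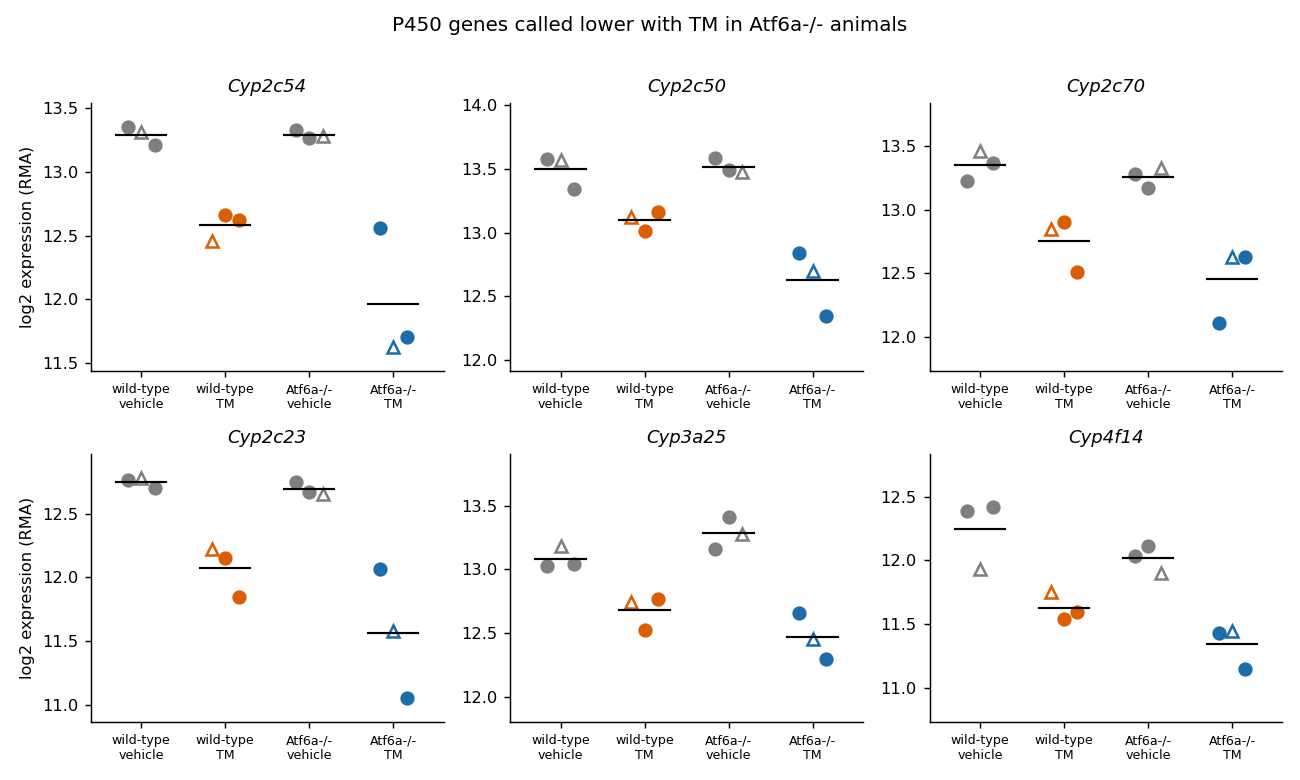
RMA signal on the log2 scale (y axis) of 6 P450 genes called lower with TM in Atf6a-/- mice, by group (x axis). Each point is 1 array, open triangles are the 4 arrays with Y-linked signal, lines are group means of 3 arrays, and each panel has its own scale. For all 6 genes the TM arrays of either genotype lay below the vehicle arrays of that genotype.

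The Cyp2c genes, which lie on chromosome 19, held 5 of the 11 genes called lower in Atf6a-/- mice. Of 11 measured Cyp2c genes, 3 were called lower in wild-type and 5 in Atf6a-/- mice, with medians of -0.40 and -0.89. Of all genes 6.9% and 8.21% were called lower, with medians of -0.060 and -0.10. In the order of the RefSeq gene table, Cyp2c37, Cyp2c54, Cyp2c50, Cyp2c70 and Cyp2c23 follow each other without another Cyp2c gene between them, and these were the 5 genes called, Cyp2c23 lying apart from the others further along the chromosome. The 6 measured genes ahead of them were not called in either genotype. Cyp2c29, the first of these with a high signal, changed by -0.11 in wild-type and -0.50 in Atf6a-/- mice (adjusted p = 0.536 and 0.00247), and Cyp2c68 by 0.03 and -0.16 (adjusted p = 0.974 and 0.763). Cyp2c55 and Cyp2c38 changed by -1.35 each in Atf6a-/- mice, with standard errors of 0.48 and 0.47 (adjusted p = 0.0522 and 0.05), and Cyp2c39 by -0.72 (adjusted p = 0.166). In every group the array with Y-linked signal was the lowest for Cyp2c38 and Cyp2c39 and the highest for Cyp2c55. The other Atf6a-/- arrays of Cyp2c39 measured 7.62 and 7.73 with vehicle and 6.57 and 6.55 with TM. Those of Cyp2c38 measured 11.45 and 11.30 with vehicle and 10.24 and 9.39 with TM. Those of Cyp2c55 measured 7.28 and 7.90 with vehicle and 5.76 and 6.20 with TM. Calls of these genes without the arrays with Y-linked signal are not given here. Cyp2c65 lay below the array median in all groups. Cyp2c40, Cyp2c66, Cyp2c67 and Cyp2c69 had no probeset of their own and were not analysed here. Close relatives among these genes may share probe targets, which was not tested.

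**Figure D3:**
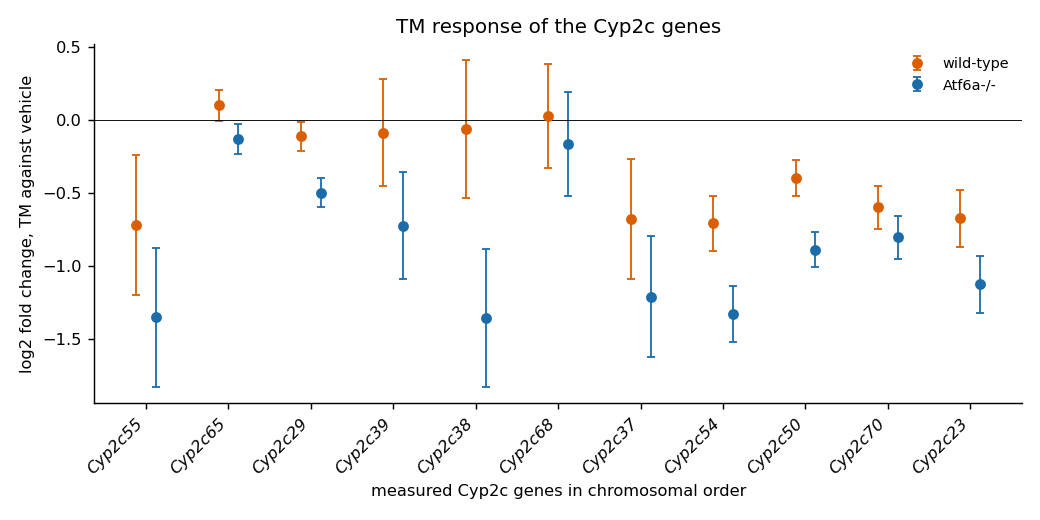
Log2 fold change (y axis) of TM against vehicle for the 11 measured Cyp2c genes, in their order along chromosome 19 (x axis), in wild-type (orange) and Atf6a-/- mice (blue), from 3 arrays per group with standard errors as bars. The 5 genes at the right were the ones called lower in Atf6a-/- mice, with changes from -0.80 to -1.33. Cyp2c55 and Cyp2c38, further left, changed by -1.35 each in that genotype and were not called (limma adjusted p = 0.0522 and 0.05003). Cyp2c37 was called at an adjusted p of 0.0453.

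Between the genotypes no P450 gene was called by its brightest probeset. Of the other probesets, a dimmer one of Cyp20a1 was called lower in Atf6a-/- mice under TM (-0.60, adjusted p = 0.017), where the brightest one differed by -0.14 (adjusted p = 0.835). Under TM, 0 were higher and 0 lower in Atf6a-/- than in wild-type mice by limma (all genes 2.89% and 1.53%), where 0 and 3 had an unadjusted p under 0.05 (all genes 11.7% and 7.02%) and the methods' t-test called 0 and 0. The 3 were Cyp2c23 (-0.51, adjusted p = 0.217), Cyp2c50 (-0.47, adjusted p = 0.0532) and Cyp2c54 (-0.62, adjusted p = 0.105). The arrays did not overlap for Cyp2c50, Cyp2j11 (below the array median), Cyp4f14, Cyp51 and Cyp8b1, all lower in Atf6a-/- mice, or 5 genes (6.94%), against 10.2% of all genes, and for 0 higher (all genes 13.4%). Cyp8b1, the sterol 12α-hydroxylase of bile acid synthesis, measured 12.48, 12.24 and 12.40 in wild-type and 11.64, 12.08 and 9.30 in Atf6a-/- mice under TM (-1.37, standard error 0.63, adjusted p = 0.344). An Atf6a-/- vehicle array was also low for it, at 10.27 beside 12.31 and 12.27. Without Atf6a-/- TM replicate 1, Cyp2c23 and Cyp2c54 were called lower.

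Under vehicle, 0 P450 genes were called in either direction by limma, as were 0% of all genes, and 3 (all genes 1.8%) had an unadjusted p under 0.05 as higher in Atf6a-/- mice, Cyp24a1 (below the array median), Cyp26a1 and Cyp26b1, the catabolic enzymes of vitamin D and retinoic acid. None had one as lower (all genes 2.07%). The arrays did not overlap for 7 higher (all genes 4.85%) and 0 lower (all genes 3.68%) P450 genes. The methods' t-test called Cyp26b1 higher without adjustment and 0 genes with it. The response to TM differed between the genotypes for 0 P450 genes in either direction (all genes 1.06% and 0.748%), and 5 had an unadjusted p under 0.05 as lower in Atf6a-/- mice (6.94%, all genes 5.4%), against 0 as higher (all genes 8.94%). The 5 were Cyp26b1 (-1.28), Cyp2c54 (-0.62, 95% interval from -1.21 to -0.037, adjusted p = 0.406), Cyp2c50 (-0.49, adjusted p = 0.272), Cyp3a25 (-0.41, adjusted p = 0.339) and Cyp2c29 (-0.39, adjusted p = 0.287). The interaction estimate was below 0 for 52 P450 genes (72.2%, all genes 53.4%). Without wild-type TM replicate 1 Cyp26b1 was called lower in the interaction, and without Atf6a-/- TM replicate 1 Cyp2c54 was.

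None of the 5 brightest P450 genes (Cyp2e1, Cyp3a11, Cyp2f2, Cyp2c68 and Cyp2d26) was called with TM. Cyp2e1, the ethanol-oxidizing P450 of pericentral hepatocytes, measured 14.32, 14.34 and 14.26 in wild-type vehicle arrays and 14.26, 14.33 and 14.39 in wild-type TM arrays (0.02, 95% interval from -0.15 to 0.19) and changed by -0.01 in Atf6a-/- mice (from -0.18 to 0.16). Cyp3a11, the main PXR-induced drug hydroxylase, changed by -0.05 (adjusted p = 0.784) and -0.18 (adjusted p = 0.151), and Cyp2f2, a periportal P450, by -0.24 and -0.18. Cyp2d26 changed by -0.19 and -0.30 (adjusted p = 0.23 and 0.033) and Cyp2d10, which followed the 5 in brightness, by -0.23 and -0.27 (adjusted p = 0.193 and 0.0836). The TM arrays of both lay below the vehicle arrays in each genotype, as did those of Cyp3a11 in Atf6a-/- mice, and none of these changes reached 1.5-fold. Signals this high lie near the upper end of the arrays, whose maximum was 14.90 to 14.97, so that changes there may be compressed. Cyp1a2, the other main pericentral P450, measured 12.99 ± 0.10 (SD, n = 3) in wild-type vehicle and 12.75 ± 0.30 in wild-type TM arrays, and 12.98 ± 0.21 and 12.50 ± 0.35 in those of Atf6a-/- mice (-0.49, adjusted p = 0.0694). It was called lower in Atf6a-/- mice without TM replicate 2 of that genotype. Of the 3 genes of family 1, which dioxin-like compounds induce, 0 were called in either genotype, and Cyp1a1 lay below the array median. The shares of all genes were 8.92% higher and 6.9% lower in wild-type and 13.1% and 8.21% in Atf6a-/- mice.

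Among the 7 P450 genes of sterol and bile acid metabolism, 0 were called higher with TM and 1, Cyp46a1, lower in wild-type mice, and 0 in either direction in Atf6a-/- mice. Beside these and the following counts, 8.92% of all genes were higher and 6.9% lower in wild-type mice (13.1% and 8.21% in Atf6a-/- mice). Lists this short hold few calls at such shares. Cyp7a1, the rate-limiting enzyme of the main bile acid pathway, measured 12.25, 12.08 and 12.18 in wild-type vehicle arrays and 12.72, 11.49 and 12.63 in wild-type TM arrays (0.11, adjusted p = 0.846). In Atf6a-/- mice it measured 12.09, 12.49 and 11.98 with vehicle and 11.95, 11.98 and 12.43 with TM (-0.06, adjusted p = 0.887). The TM arrays lay on either side of the vehicle arrays in wild-type mice and overlapped them in Atf6a-/- mice. Cyp27a1, the mitochondrial sterol 27-hydroxylase, changed by -0.03 and -0.06, Cyp39a1, an oxysterol 7α-hydroxylase, by 0.78 and 0.57 (adjusted p = 0.25 and 0.338), and Cyp51, the lanosterol demethylase of cholesterol synthesis, by 0.36 and -0.24 (adjusted p = 0.378 and 0.496). A dimmer Cyp51 probeset was called lower in Atf6a-/- mice (-0.97, adjusted p = 0.00357), and its other probeset was not (-0.30). The 5 measured steroid hormone P450 genes had 0 calls in either genotype, with medians of 0.05 and -0.03. Of the 5 measured vitamin A and D P450 genes, Cyp26b1 was called higher in wild-type and Cyp26a1 lower in Atf6a-/- mice, and Cyp24a1 and Cyp27b1 lay below the array median. Cyp2r1, the vitamin D 25-hydroxylase, changed by -0.46 and -0.66 (adjusted p = 0.275 and 0.0773).

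Family 4 holds fatty acid hydroxylases, and of its 12 measured genes 1 (Cyp4f14) was called lower in wild-type and 2 (Cyp4f14 and Cyp4v3) in Atf6a-/- mice, with 0 higher. For this and the following counts, the shares of all genes were 8.92% higher and 6.9% lower in wild-type mice. In Atf6a-/- mice they were 13.1% and 8.21%. Of the 3 measured Cyp4a genes, the subfamily known as targets of PPARα, 0 were called in either genotype. Cyp4a14 measured 12.73, 10.26 and 12.33 in wild-type vehicle arrays and 12.02, 12.20 and 12.51 in wild-type TM arrays (0.47, adjusted p = 0.692). In Atf6a-/- mice it measured 13.17, 12.89 and 11.81 with vehicle and 12.80, 10.68 and 11.56 with TM (-0.94, adjusted p = 0.284). The groups overlapped in both genotypes. Cyp4a31 changed by -0.54 and -1.06 (adjusted p = 0.596 and 0.183) and Cyp4b1 by 0.16 and -0.01. The 5 measured genes of subfamily 2j had 1 call, Cyp2j9, and Cyp2j5, an epoxygenase of liver and kidney, changed by -0.01 and 0.00. Of 8 measured Cyp2d genes, Cyp2d40 was called lower in both genotypes. Of 5 measured Cyp3a genes, Cyp3a25 was called, Cyp3a13 changed by -0.34 and -0.38, and in replicate 3 of Atf6a-/- TM Cyp3a16, whose group means were all below the array median, stood at 7.23 and Cyp3a44 at 9.25, where all other arrays lay between 3.07 and 4.05 and between 5.37 and 7.82.

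The P450 genes were more variable within groups than most genes. The SD pooled over groups exceeded 1 for 8 of 72 (11.1%), against 0.352% of all genes, and its median was 0.25 for P450 genes and 0.15 for all genes. Much of this followed the array with Y-linked signal in each group. That array lay above both others of its group in all 4 groups for 13 P450 genes (18.1%, all genes 4%) and below both others for 11 (15.3%, all genes 3.88%). With a mean difference over 1 these numbered 4 (5.56%, all genes 0.236%) and 7 (9.72%, all genes 0.242%). The choice of array rests on Y-linked genes and Xist, and no test was run on it.

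Cyp4a12a, an arachidonic acid ω-hydroxylase gene that is commonly higher in male liver, measured 12.42, 11.35, 12.65 and 11.78 in these 4 arrays and 4.27 to 6.84 in the other 8. Cyp2d9, a testosterone 16α-hydroxylase gene known from male liver, measured 13.59, 13.27, 13.70 and 13.62 there and 7.04 to 12.45 elsewhere, and Cyp7b1, an oxysterol 7α-hydroxylase gene, 13.28, 11.56, 13.35 and 12.83 there and 9.77 to 10.73 elsewhere. For each of the 3 genes the lowest of the 4 arrays lay above all of the other 8. In the other direction, Cyp2b9 measured 5.43, 7.76, 3.89 and 5.23 in the 4 arrays and 11.74 to 12.61 elsewhere, and Cyp2b13 measured 5.58, 5.88, 5.50 and 5.56 there and 9.68 to 12.53 elsewhere. Both encode steroid hydroxylases that are commonly higher in female liver. Cyp17a1, the steroid 17α-hydroxylase, measured 7.46, 8.49, 7.48 and 7.55 there and 9.78 to 11.26 elsewhere. Of the 4 arrays, replicate 1 of wild-type TM stood closest to the other 8, with the highest Cyp2b9 and the lowest Cyp7b1, Cyp4a12a and Cyp2d9.

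Cyp2g1, Cyp4a14, Cyp2b10 and Cyp2c38 were also lower in these arrays, by 1.09 to 1.49 on average, Cyp2c55 was higher by 1.13 and Cyp2u1, a long-chain fatty acid hydroxylase gene, by 0.83. Cyp20a1, an orphan P450 gene, was lower by 0.38. With TM, 0 of 4 measured P450 genes commonly higher in male liver and 1 of 8 commonly higher in female liver, Cyp2b10, were called in each genotype. The shares of all genes were 8.92% higher and 6.9% lower in wild-type and 13.1% and 8.21% in Atf6a-/- mice. For Cyp2b9 the change with TM was 0.90 in wild-type and 0.61 in Atf6a-/- mice, with a standard error of 2.60, and for Cyp4a12a it was -0.61 and -0.91 with a standard error of 2.59. Without the 4 arrays it was 0.18 and 0.25 for Cyp2b9, with a standard error of 0.14 (adjusted p = 0.488 and 0.232).

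**Figure D4:**
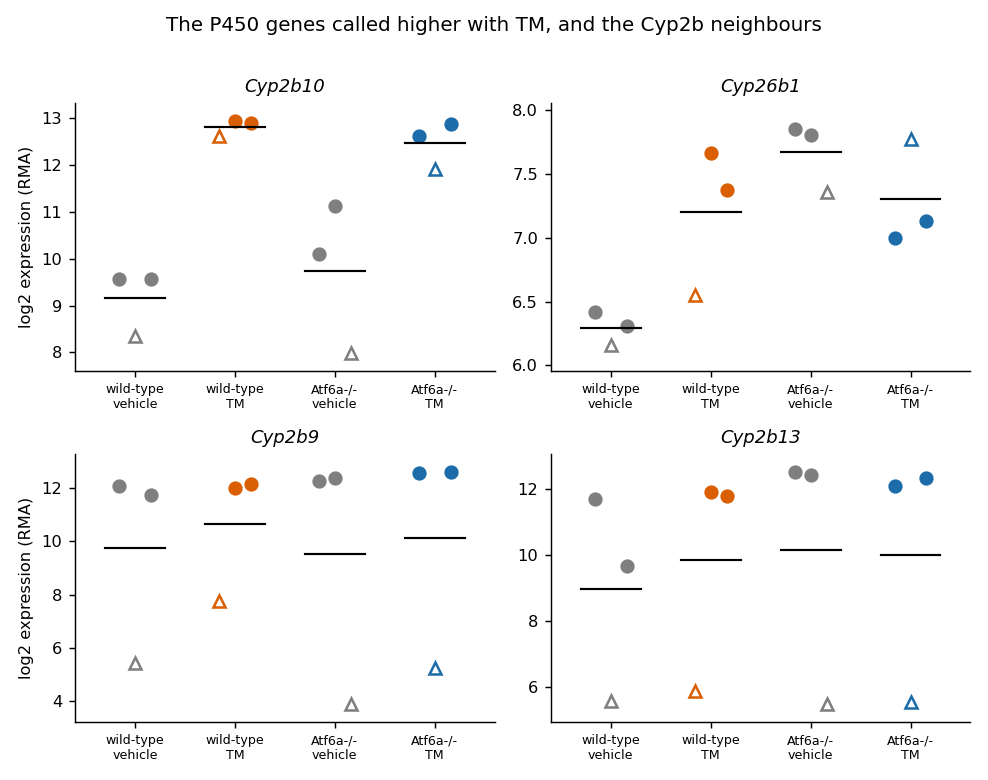
RMA signal on the log2 scale (y axis) of Cyp2b10, Cyp26b1, Cyp2b9 and Cyp2b13 by group (x axis). Each point is 1 array, open triangles are the arrays with Y-linked signal, lines are group means of 3 arrays, and each panel has its own scale. Cyp2b10 stood at 11.92 or above in all TM arrays and at 11.11 or below in all vehicle arrays, whereas Cyp2b9 and Cyp2b13 were low in the triangle of every group.

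**Figure D5:**
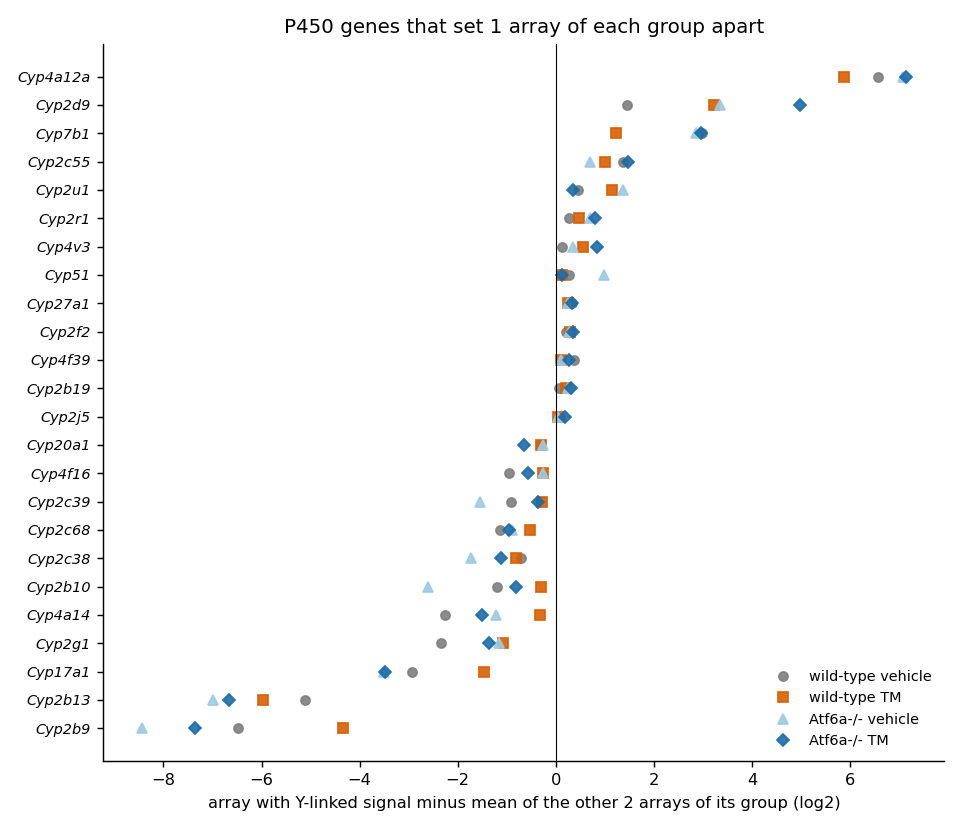
Difference between the array with Y-linked signal and the mean of the other 2 arrays of its group (x axis, log2) for the 24 P450 genes (y axis) in which that array lay above or below both others in all 4 groups. Each gene has 1 point per group. Cyp4a12a stood furthest to the right, at 5.87 to 7.14, and Cyp2b9 furthest to the left, at -8.45 to -4.34.

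Genes that serve the P450 enzymes were counted in the same way. Of all genes, 8.92% were higher and 6.9% lower in wild-type mice (13.1% and 8.21% in Atf6a-/- mice). Of 6 measured electron donors and partners, 0 were called higher, 2 were called lower in wild-type mice and 3 in Atf6a-/- mice, with medians of -0.23 and -0.46. Fdx1, the ferredoxin that feeds electrons to mitochondrial P450 enzymes, fell by 0.68 and 0.67 (adjusted p = 0.00474 and 0.00373), Cyb5r3, the cytochrome b5 reductase gene, by 0.65 and 0.78 (adjusted p = 0.0293 and 0.00787), and Cyb5b by 1.02 in Atf6a-/- mice (adjusted p = 3.45e-04). Without probesets marked _s_at, _x_at or _a_at, Cyb5r3 changed by 0.13 in wild-type mice (adjusted p = 0.515) and by -0.13 in Atf6a-/- mice (adjusted p = 0.411), so that both calls were lost. Por, the main reductase of microsomal P450 enzymes, had no probeset of its own and was not analysed here. Of 12 measured genes of heme synthesis and breakdown, 2 were higher and 0 lower in wild-type mice and 2 were higher and 6 lower in Atf6a-/- mice, with medians of -0.17 and -0.53. Alas1, the rate-limiting enzyme of heme synthesis in liver, fell by 1.72 in Atf6a-/- mice (adjusted p = 0.00472) and changed by -0.77 in wild-type mice (adjusted p = 0.209), and Alad, Urod, Fech, Blvra and Blvrb were the other 5. Alad changed by -0.38 in wild-type mice (adjusted p = 0.0821), and by 0.83 there (adjusted p = 0.0244) with the same probesets left out. Hmox2, a heme oxygenase gene, rose by 1.04 and 1.29 (adjusted p = 4.13e-05 and 5.69e-06). Blvra, a biliverdin reductase gene, fell by 1.82 in Atf6a-/- mice (adjusted p = 5.63e-07) and differed in its response (-1.29, adjusted p = 0.00215).

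Of 30 measured transcriptional regulators of P450 genes, 1 was higher and 14 were lower in wild-type mice and 6 were higher and 12 lower in Atf6a-/- mice. The medians were -0.57 and -0.21, beside -0.060 and -0.10 over all genes, of which 8.92% were higher and 6.9% lower in wild-type and 13.1% and 8.21% in Atf6a-/- mice. Nr1i3, which encodes CAR, fell by 1.84 and 1.43 (adjusted p = 3.65e-04 and 0.00148), in the same arrays in which the CAR target Cyp2b10 rose. Ahr fell by 1.09 and 1.06 (adjusted p = 5.83e-05 and 4.91e-05), Ppara by 1.67 and 1.65 (adjusted p = 8.49e-04 and 6.11e-04) and Cebpa by 1.13 and 0.86 (adjusted p = 1.57e-05 and 9.05e-05). The coactivator gene Ppargc1a fell by 2.90 and 3.03 (adjusted p = 5.59e-05 and 2.68e-05) and the clock output gene Hlf by 1.41 and 1.45 (adjusted p = 5.56e-05 and 2.98e-05). Hnf4a, the receptor gene of hepatocyte identity, changed by 0.36 in wild-type mice (adjusted p = 0.145) and rose by 0.94 in Atf6a-/- mice (adjusted p = 6.03e-04). Nr1i2, which encodes PXR, changed by 0.11 and 0.69 (adjusted p = 0.806 and 0.0336), and Rora rose by 1.32 and 2.30 (adjusted p = 5.94e-05 and 7.78e-07). The Nr1i2 call was lost without any Atf6a-/- vehicle replicate or without TM replicate 1 or 2 of that genotype.

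Markers of other cells and of liver zones were read beside these changes. Of all genes, 8.92% were called higher and 6.9% lower with TM in wild-type mice, and 13.1% and 8.21% in Atf6a-/- mice. Of 11 measured pericentral genes, among which Cyp1a2, Cyp2e1 and Cyp7a1 are counted, 1 was higher and 2 lower with TM in wild-type and 1 higher and 4 lower in Atf6a-/- mice, where the mean level of the list ranged from 10.83 to 10.95 with vehicle and from 10.48 to 10.72 with TM. In wild-type mice that mean ranged from 10.73 to 10.88 with vehicle and from 10.48 to 10.81 with TM. Of 8 measured periportal genes, among which Cyp2f2 and Cyp17a1 are counted, 0 were higher in either genotype. Hal was lower in wild-type and Pck1 in Atf6a-/- mice, and the list had medians of -0.13 and -0.07. Its mean level was 11.45 to 11.90 with vehicle and 11.22 to 11.41 with TM in wild-type mice. In Atf6a-/- mice it was 11.49 to 12.04 with vehicle and 11.45 to 11.87 with TM. Among the 9 hepatocyte markers Tat was higher in both genotypes, and Hnf4a was higher and Apob lower in Atf6a-/- mice, with medians of -0.046 and -0.0027. Of 9 Kupffer cell and macrophage markers, 0 were called in wild-type and 4 were lower in Atf6a-/- mice, with medians of -0.35 and -0.59. Every estimate of the list lay below 0 in both genotypes. The mean level of the list was 8.93 to 9.80 with vehicle and 8.96 to 9.19 with TM in wild-type mice. In Atf6a-/- mice it was 9.02 to 9.70 with vehicle and 8.49 to 9.02 with TM. All 9 lay above the array median in every group. Of 8 endothelial, 9 stellate, 5 cholangiocyte and 8 blood cell markers, 1, 2, 0 and 0 were lower in wild-type and 0, 1, 1 and 2 in Atf6a-/- mice, and 1 endothelial marker was higher in the latter. The part of these markers in the P450 results was not tested.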

How the data were processed

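Liver RNA of 12 mice was hybridized to Affymetrix arrays, and the authors deposited 1 table of log2 values, made by robust multi-array averaging. The submitters' processing notes name RMA, affy and limma without versions. The table holds 45101 probesets, of which 64 are Affymetrix controls and 45037 were tested. Groups were taken from the sample labels.

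Gene names came from the platform annotation, and 97 probesets named a single P450 gene. The values were used as deposited, without renormalization or a filter on low values. A model with 4 group means was fitted to all probesets with limma 3.58.1 in R 4.3.3, and p-values were adjusted by Benjamini-Hochberg over all probesets. Calls required an adjusted p under 0.05 together with a change of at least 1.5-fold (0.585 on the log2 scale). The p-values measure the spread between these animals, whose number limits the precision, and with 3 arrays on each side the smallest p of an exact permutation test is 0.1. The P450 members, gene lists and tests were chosen with earlier results of these data known.

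The genes named were the 10 called P450 genes per contrast with the largest limma statistic whose arrays did not overlap, P450 genes listed by role, those commonly higher in male or female liver, the 5 brightest, and partner genes with the 3 largest statistics plus listed receptors. Cyp2c37 and Cyp2g1 were called outside this rule, and they and further genes that complete a count were named after their values were seen. Alternatives were other normalizations, thresholds, probeset choices and tests, a term for the level of Y-linked genes less that of Xist, a replicate block and leaving out each array. The alternative that omits 4 arrays, those with Y-linked signal, was chosen after seeing the data. The fit was tested on simulated data for the wild-type TM contrast over 45037 probesets. Of the probesets changed by 1 (log2) 90 of 100 were called, of those changed by 2 97 of 100, and of the unchanged ones 9 of 44837. The simulated noise was drawn separately for each array and probeset. These counts therefore do not cover genes whose levels split the arrays of a group. Figures were drawn with matplotlib 3.10.9.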

Additional observations from a re-analysis of the deposited data

How the results depend on the processing

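Wild-type mice had 2 P450 genes called higher and 7 lower with TM. Leaving out 1 array at a time gave 1 to 2 higher and 1 to 7 lower. The higher count was 1 without wild-type vehicle replicate 1, 2 or 3 or TM replicate 2 or 3, and the lower count was 1, 3 and 4 without vehicle replicates 1, 2 and 3 and 4 and 3 without TM replicates 1 and 3. Cyclic loess gave 4 lower, a 2-fold threshold 1 higher and 1 lower, the methods' t-test 1 higher without adjustment and 1 higher and 1 lower after Benjamini-Hochberg, and the 8 arrays without Y-linked signal 3 lower. In Atf6a-/- mice, with 1 higher and 11 lower, leaving out 1 array gave 1 to 2 higher (2 without Atf6a-/- TM replicate 2, which added Cyp20a1) and 7 to 14 lower (7 without Atf6a-/- TM replicate 3). A 2-fold threshold gave 4 lower, the adjusted t-test 0 higher and 3 lower, and the arrays without Y-linked signal 18 lower. Between genotypes under TM, 0 to 2 were lower (2 without Atf6a-/- TM replicate 1). Under vehicle, 1 was higher by the unadjusted t-test and 1 without the arrays with Y-linked signal. In the interaction 0 to 1 were lower (1 without wild-type TM replicate 1 or Atf6a-/- TM replicate 1), and 1 without the arrays with Y-linked signal. The cause of these shifts was not tested. Without probesets marked _s_at, _x_at or _a_at, Alad changed by 0.83 (adjusted p = 0.0244) and Cyb5r3 by 0.13 (adjusted p = 0.515) in wild-type mice with TM, where they had been -0.38 and -0.65; another probeset then stood for each gene.

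With the replicate number as a replicate block, 2 P450 genes were higher and 7 lower with TM in wild-type and 1 higher and 10 lower in Atf6a-/- mice, Cyp2c37 being lost, and 0 were called in the other comparisons. Same-numbered arrays deviated together in some pairs and oppositely in others. Over all probesets r was -0.18, -0.078 and 0.15 in wild-type mice and 0.39, -0.48 and -0.29 between the vehicle groups. Over the P450 genes it was -0.89, -0.80 and 0.69 in wild-type mice. The array with Y-linked signal does not carry the same number in every group, so these values cannot show what the number stands for.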
